A study of Pangasianodon hypophthalmus with 14 samples.

Results

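The step from 8 to 9 days post fertilization (dpf) covers a single day in the larval life of the tra catfish, *Pangasianodon hypophthalmus*, a facultative air-breather that takes up air through its swim bladder. The comparison uses 4 of the 14 RNA-seq libraries of a developmental series, 2 from fry at 9 dpf and 2 from fry at 8 dpf, and takes in every gene of the deposited table. That table held 21656 genes, of which 19310 had enough counts to be tested. The series followed whole, untreated fry at 7 stages between 2 and 11 dpf to find genes whose expression changed while aerial breathing developed.

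Each library was made from the whole bodies of several pooled larvae of the same age after removal of ribosomal RNA. Eye, brain, gut, muscle and swim bladder were therefore measured together, so that fewer cells of a type and less RNA per cell cannot be told apart. The study reports daily sampling at a regular interval after hatching, but the time of day is not given in the sources used here. Nothing in the labels says that the 2 pools of a stage came from separate spawnings, and the p-values measure only the spread between these pools, which may be technical.

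The 8 dpf libraries held 7169047 and 11609823 counts and the 9 dpf libraries 7764533 and 7197268 counts. At these depths 3 counts, taken as the floor of detection, were worth between 0.289 and 0.458 counts per 1000000 counts (CPM), and this floor covers counting error only. Markers of muscle, liver and nervous system were present at both stages, and the summed level of 65 sarcomere and muscle genes was 181500 and 187300 CPM at 8 dpf and 203400 and 203900 CPM at 9 dpf. The 2 libraries of 9 dpf were very alike. Their counts gave a chi-square of 1.14 per gene, where sampling alone gives 1, against 3.59 for the pair of 8 dpf libraries. The pairs of 6 and 11 dpf were also close to sampling, at 1.13 and 1.28, while the pair of 10 dpf gave 3.7.

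Several organ systems of a fish larva are still being fitted out at this age. Photoreceptor cells extend outer segments that hold the enzymes of the light response, and the retinal pigment epithelium behind them regenerates the visual pigment. The acinar cells of the pancreas fill secretory granules with digestive enzymes. In most cells a circadian clock runs in which the activators Clock and Bmal switch on period and cryptochrome genes, whose proteins in turn repress them.

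A gene was called when its Benjamini-Hochberg adjusted p was under 0.05 in edgeR's quasi-likelihood test and its log2 fold change was beyond 1 in either direction. By this rule 247 genes changed between 8 and 9 dpf, which was 1.28% of the genes tested. Of these, 89 genes (0.461%) rose and 158 genes (0.818%) fell. Over all tested genes, 44.6% had a log2 fold change above 0. These shares are the background for the counts of list members below. Scaling by library totals in place of TMM raised the median of all genes by 0.13 on the log2 scale and turned this balance, with 179 genes called higher and 94 called lower. The libraries of the 2 stages did not overlap for any called gene, which was also true of 60.1% of all genes tested. Called genes that rose were mostly low in level: their median went from 2.93 to 7.21 CPM, and 56 of the 89 stayed under 10 CPM at both stages. Called genes that fell had a median of 41.1 CPM at 8 dpf and 17.7 CPM at 9 dpf, and 45 of the 158 exceeded 100 CPM at 1 of the stages.

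The size of these sets rested on each of the 4 libraries. Without the first or the second 8 dpf library 149 and 79 genes were called, and without the first or the second 9 dpf library 48 and 57. When the 2 closely matching 9 dpf libraries were summed and counted as 1 sample, 74 genes were called, of which 73 were among the 247. All 247 genes kept their direction in that fit. The pairs of 6 and 11 dpf were also close to sampling, with a chi-square of 1.13 and 1.28 per gene, so the same reason holds for summing them. Summing the pairs of 6, 9 and 11 dpf left far fewer calls than summing the 9 dpf pair alone, as given below under processing. All 247 genes kept their direction there too. Statements below that a call held with the 9 dpf pair summed refer to the milder of these fits.

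**Figure D1:**
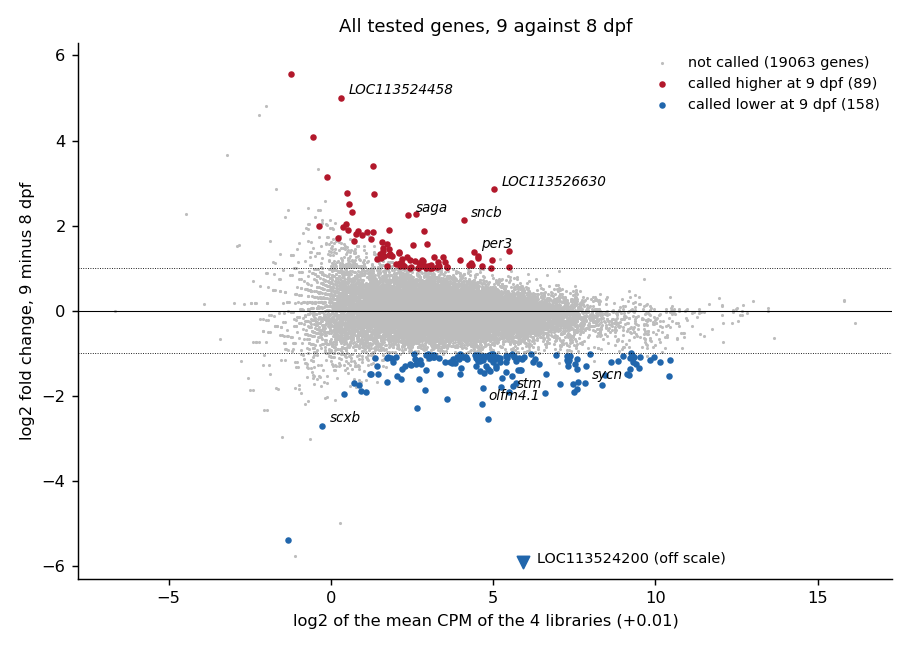
Log2 fold change of 9 against 8 dpf (vertical axis) against the log2 of the mean CPM of the 4 libraries (horizontal axis) for the 19310 tested genes, with the 89 genes called higher in red, the 158 called lower in blue and dotted lines at a log2 fold change of 1 in either direction. The red points lie mostly to the left, at low levels, while the blue points reach the abundant genes, and *LOC113524200*, at 0 counts in both 9 dpf libraries, lies off the scale and is drawn as a triangle.

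Of the 56 gene lists examined, that of photoreceptor genes had the largest number of called rises. The list of photoreceptor and visual cycle genes had 42 tested members, and 9 of them (21.4%) were called higher, while none was called lower. The median log2 fold change over the 42 was 0.71, beside -0.05 over all genes, and 34 of the 42 lay above 0. The symbol stems of the list also took in *rhob*, a name shared with a small GTPase, and the G protein beta subunits *gnb1* and *gnb1b*, which many tissues use. None of these was among the called members.

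*saga*, a visual arrestin that switches off activated opsin, rose most within the list. Its level was 1.68 and 1.92 CPM in the 8 dpf libraries and 8.898 and 8.43 CPM in the 9 dpf libraries, so the later pair lay far above the earlier one. This gave a log2 fold change of 2.24 ± 0.27 (approximate SE, defined under processing), or 4.72-fold, with an edgeR adjusted p of 0.000297. It was the only called member of the list that stayed called with any 1 of the 4 libraries left out. The second arrestin gene, *sagb*, was measured at 1.52 and 2.12 CPM and then at 5.23 and 5.06 CPM. Its log2 fold change was 1.45 ± 0.37 (edgeR adjusted p = 0.0356). The 2 arrestin genes are related in sequence, and reads shared between them may have been divided by the counting.

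The remaining called members included an enzyme of cyclic GMP breakdown, one of its synthesis and an opsin kinase. *pde6c*, the catalytic subunit of the cone phosphodiesterase, went from 2.29 and 3.75 CPM to 10.7 and 12.5 CPM. Both later libraries were above both earlier ones, and the log2 fold change was 1.88 ± 0.35 (edgeR adjusted p = 0.00767). *gucy2d*, a retinal guanylate cyclase that restores cyclic GMP after light, was at 1.37 and 1.54 CPM at 8 dpf and 5.23 and 5.76 CPM at 9 dpf, a log2 fold change of 1.89 ± 0.36 (edgeR adjusted p = 0.00816). *grk7*, the kinase of cone opsins, was at 0.457 and 0.962 CPM and then 2.49 and 3.23 CPM, with a log2 fold change of 1.88 ± 0.48 (edgeR adjusted p = 0.0367). These 3 genes all had few reads at 8 dpf, where *grk7* was close to the floor.

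In the visual cycle, *rpe65*, the isomerase of the retinal pigment epithelium that regenerates 11-cis retinal, rose from 2.29 and 3.46 CPM to 7.197 and 10.3 CPM, a log2 fold change of 1.54 ± 0.35 (edgeR adjusted p = 0.0202). The regulator *rgs9a*, which speeds the shut-off of transducin, rose by 1.39 ± 0.33 on the log2 scale (edgeR adjusted p = 0.0257). The disc rim protein gene *prph2b* and the calcium sensor gene *rcvrn2* rose by 1.21 ± 0.32 on the log2 scale and 1.12 ± 0.28 on the log2 scale. Outside the list, but also among the 12 named genes with the largest rise, were *otx2*, a homeobox gene of the eye and forebrain, at 1.37 and 1.54 CPM and then 5.103 and 3.93 CPM, and *ppef1*, which encodes a calcium-binding phosphatase, at 0.457 and 0.577 CPM and then 1.96 and 2.53 CPM. Their log2 fold changes were 1.61 ± 0.36 and 2.04 ± 0.44 (edgeR adjusted p = 0.0198 and 0.0163). At 6 dpf *otx2* had been at 3.45 and 5.04 CPM, near its 9 dpf level, and *ppef1* at 1.02 and 1.16 CPM. Of the called list members, *saga* had been at 4.98 and 3.49 CPM at 6 dpf and *rpe65* at 6.09 and 5.95 CPM. *rgs9a* had been at 2.84 and 3.10 CPM at that stage and *rcvrn2* at 7.31 and 8.53 CPM. All of these list members had been above both of their 8 dpf libraries. For *sagb*, *pde6c*, *gucy2d*, *grk7* and *prph2b* the libraries of 6 and 8 dpf overlapped.

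Other genes of the same cells were not called. The rhodopsin gene *rho* stood at 2.29 and 1.92 CPM at 8 dpf and at 1.701 and 2.11 CPM at 9 dpf, and the 2 stages overlapped. The cone transducin gene *gnat2* gave 9.91 and 11.2 CPM and 12.9 and 10.8 CPM, also with overlap, and the retinoid-binding *rbp3* gave 8.23 and 13.1 CPM and 15.1 and 8.85 CPM. Calls within this group were sensitive to the number of libraries: 3 of the 9 were kept when the 9 dpf pair was summed, 1 of the 9 (*saga*) in each fit with 1 of the 4 libraries left out, and none in DESeq2 on the 4 libraries alone.

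Lens crystallins, the structural proteins of the lens, had 2 called rises among 16 tested members and a median log2 fold change of 0.45. *crybb1l3* was at 17.4 and 22.7 CPM at 8 dpf and 42.4 and 39.3 CPM at 9 dpf, and *cryba2b* at 16.8 and 16.2 CPM and 35.5 and 32.7 CPM. Both exceeded the earlier libraries in each later one, with log2 fold changes of 1.01 ± 0.18 and 1.05 ± 0.23 (edgeR adjusted p = 0.00596 and 0.016). Neither was called with the 9 dpf pair summed. Crystallin genes occur in families of close copies, which limits how surely reads are assigned to a single one.

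Among the circadian clock genes the calls fell on those that close or report the loop. Of the 21 tested clock repressor and output genes 4 were called higher (19.1%), none was called lower, 19 had a log2 fold change above 0, and the median was 0.62. Among the 13 clock activators none was called, 3 had an unadjusted p under 0.05 upward and none downward, and the median was 0.13. The difference between the 2 lists was not tested.

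The period gene *per3* was at 10.98 and 12.5 CPM in the 8 dpf libraries and at 30.4 and 31.5 CPM in the 9 dpf libraries. The pairs were tight and well apart, and the log2 fold change was 1.39 ± 0.16 (2.61-fold, edgeR adjusted p = 0.000269). It remained called with any 1 of the 4 libraries left out and with the 9 dpf pair summed. *per1b*, a second period gene, rose from 14.5 and 11.7 CPM to 25.8 and 28.8 CPM, a log2 fold change of 1.07 ± 0.17 (edgeR adjusted p = 0.00208). *hlf*, a transcription factor whose expression is set by the clock, was at 2.44 and 2.31 CPM and then 6.15 and 6.04 CPM, with a log2 fold change of 1.36 ± 0.27. *ciarta*, which encodes a repressor of Clock and Bmal, was at 4.42 and 5.29 CPM and then 9.81 and 10.5 CPM, with a log2 fold change of 1.04 ± 0.25. For these last 2 genes the edgeR adjusted p was 0.00992 and 0.0281.

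Further members passed the adjusted threshold with a change of less than 2-fold. The cryptochrome gene *cry1a* was at 29.6 and 34.4 CPM and then 62.5 and 59.9 CPM (0.93 ± 0.21, edgeR adjusted p = 0.0182). The repressor *bhlhe40* had a log2 fold change of 0.88 ± 0.18 (edgeR adjusted p = 0.0124), and *per2*, a light-responsive period gene in zebrafish, one of 0.63 ± 0.15 (edgeR adjusted p = 0.0249). In contrast, the activator *bmal1a* gave 30.3 and 28.6 CPM at 8 dpf and 27.2 and 30.6 CPM at 9 dpf, *bmal1b* 12.5 and 10.9 CPM and 12.3 and 10.3 CPM, and *clock* 17.1 and 17.9 CPM and 21.2 and 17.1 CPM. The stages overlapped for all 3. A pair of cryptochrome genes, *cry1* and *cry3a*, had log2 fold changes of -0.00 and -0.08, so the repressors did not all move together. The 4 calls fell to 2 with the 9 dpf pair summed, and between 1 and 2 were kept in the fits with 1 of the 4 libraries left out.

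Levels at the next stages differed from gene to gene. *per3* was at 28.98 and 30.1 CPM at 10 dpf and 22.9 and 22.7 CPM at 11 dpf, below both 9 dpf libraries at each stage, and had been at 7.82 and 5.302 CPM at 6 dpf. *saga* by comparison was at 3.82 and 3.62 CPM at 10 dpf and at 9.303 and 9.72 CPM at 11 dpf.

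Genes of nerve cells had few calls, but most members of the vesicle release, glutamate receptor and GABA and glycine receptor lists lay above 0. The list of synaptic vesicle release genes had 3 called rises among 50 tested members, a median log2 fold change of 0.50, and 28 members with an unadjusted p under 0.05 in the upward direction against none downward. Over all genes, 8.44% had such a p upward and 12.6% downward, and 44.6% lay above 0. None of the 31 ionotropic glutamate receptor genes was called, yet 30 lay above 0 and 17 had an unadjusted p under 0.05, with a median of 0.47. All 21 GABA and glycine receptor genes lay above 0 with a median of 0.55, and 9 had an unadjusted p under 0.05, again with no call. The 22 acetylcholine receptor genes, in contrast, had a median of 0.04, with 13 above and 9 below 0, no call and 1 unadjusted p under 0.05 in each direction. DESeq2 on all 14 libraries called no member of these 3 receptor lists either.

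*sncb*, which encodes beta-synuclein of presynaptic terminals, had the smallest p of the named genes that rose. It was at 7.32 and 5.67 CPM in the 8 dpf libraries and at 28.3 and 27.5 CPM in the 9 dpf libraries, a clear separation, with a log2 fold change of 2.13 ± 0.18 (4.37-fold) and an edgeR adjusted p of 9.74e-06. The call held with any 1 of the 4 libraries left out and with the 9 dpf pair summed. Its level was 27.7 and 28.4 CPM at 6 dpf, 9.197 and 6.58 CPM at 10 dpf and 20.5 and 20.2 CPM at 11 dpf. The level of *sncb* was thus low at 8 and 10 dpf and higher at 6, 9 and 11 dpf. The pairs of 6, 9 and 11 dpf were also those closest to sampling, and any bearing on these levels was not tested. *vamp2*, the synaptobrevin of synaptic vesicles, rose from 4.27 and 3.56 CPM to 9.68 and 13.5 CPM, a log2 fold change of 1.58 ± 0.32 (edgeR adjusted p = 0.0122). *slc17a6a*, a vesicular glutamate transporter, was at 4.88 and 6.45 CPM and then 11.4 and 11.9 CPM, and *rims3*, an active zone component, at 3.51 and 3.08 CPM and then 7.59 and 7.31 CPM. Their log2 fold changes were 1.01 ± 0.20 and 1.19 ± 0.29 (edgeR adjusted p = 0.00924 and 0.0317). At 6 dpf *vamp2* had been at 10.7 and 8.28 CPM and *slc17a6a* at 10.8 and 11.8 CPM, near their 9 dpf levels. *rims3* had been lower there, at 2.84 and 3.49 CPM. At 10 dpf *vamp2* was at 5.38 and 7.08 CPM, *slc17a6a* at 7.29 and 6.25 CPM and *rims3* at 6.42 and 4.11 CPM.

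On the postsynaptic side, *cacng2* and *cacng8b*, auxiliary subunits of AMPA receptors, were the 2 called members of the calcium channel list, which had 38 tested members and a median of 0.38. *cacng2* was at 1.68 and 1.54 CPM and then 3.93 and 4.21 CPM (1.34 ± 0.35), and *cacng8b* was at 1.83 and 2.31 CPM and then 5.37 and 5.06 CPM (1.30 ± 0.32). Both pairs of libraries were separate, with edgeR adjusted p values of 0.0372 and 0.0293. *kcnc1a*, a potassium channel of fast-firing neurons, was the single call among 95 potassium channel genes, at 5.64 and 5.39 CPM and then 12.2 and 10.96 CPM (1.07 ± 0.20, edgeR adjusted p = 0.00678). That was 1.05% of the list, beside 0.461% of all genes called higher. The neuroligin genes *nlgn2b* and *nlgn1*, chosen after their values were seen, rose 2.30-fold and 2.01-fold (edgeR adjusted p = 0.00558 and 0.0247) and encode adhesion proteins of the postsynaptic membrane.

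Markers of other neural cells were examined in the same way. The 38 general neuron markers had a median of 0.38 with *sncb* as the only call, while 19 neural progenitor genes had a median of 0.10 and 24 glia and myelin genes one of -0.07, without calls in either by edgeR or by DESeq2 on all 14 libraries. Of the progenitor genes 1 had an unadjusted p under 0.05 upward and 1 downward, and of the glia genes 1 upward and 2 downward. The summed level of the neuron markers was 1191 and 1087 CPM at 8 dpf and 1384 and 1370 CPM at 9 dpf. Of the calls of the synaptic vesicle list none held with the 9 dpf pair summed, 1 held without the second 8 dpf library, and none held in the other fits with 1 of the 4 libraries left out.

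**Figure D2:**
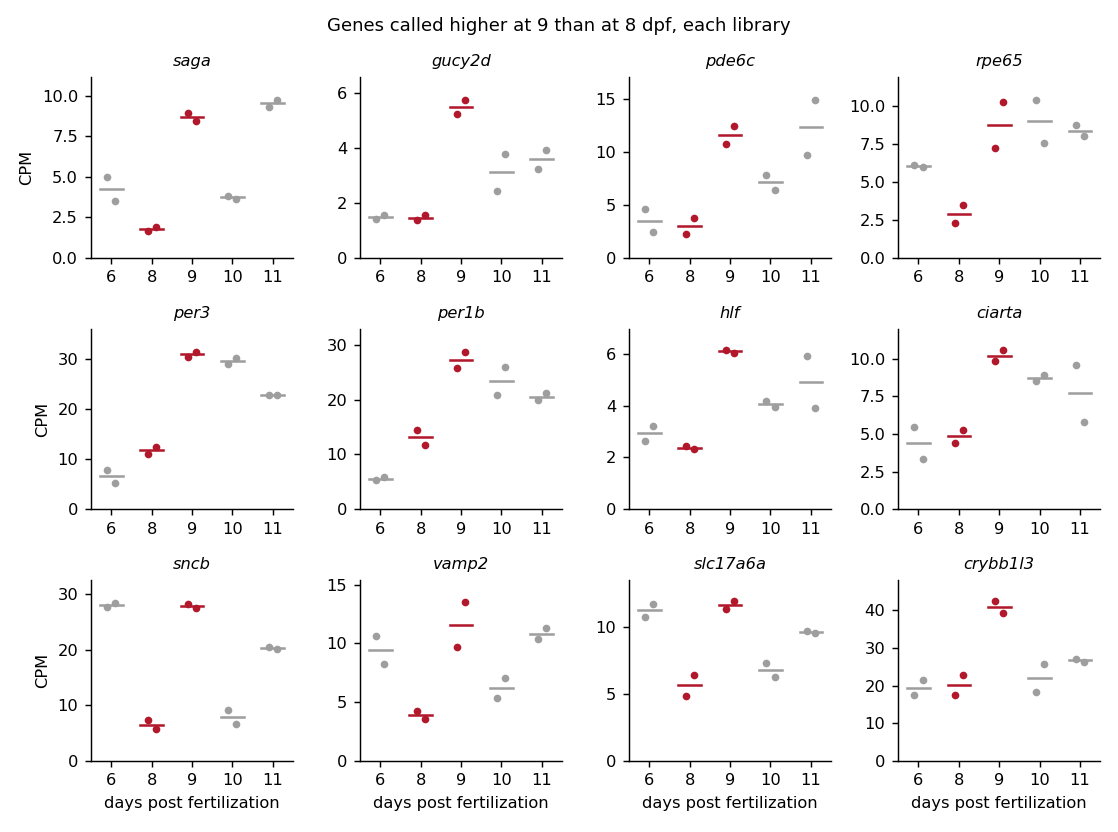
CPM (vertical axis, each panel with its own scale from 0) of 12 genes called higher at 9 dpf in each library of 6, 8, 9, 10 and 11 dpf (horizontal axis), with points for the 2 libraries of a stage, bars for their mean and 8 and 9 dpf in red. In every panel both 9 dpf points lie above both 8 dpf points. *per3* stays high at 10 dpf, and *sncb* is at 9.197 and 6.58 CPM at 10 dpf and 20.5 and 20.2 CPM at 11 dpf.

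A few further rises had known functions. *rcc1*, which encodes the exchange factor of the Ran GTPase, was at 12.2 and 14.6 CPM and then 32.6 and 33.6 CPM, and its call (1.29 ± 0.15, edgeR adjusted p = 0.000229) held with any 1 of the 4 libraries left out. At 6 dpf *rcc1* had been at 29.35 and 31.16 CPM, and at 10 dpf it was at 10.76 and 12.01 CPM. By 11 dpf it was at 22.89 and 19.6 CPM. *slc2a1a*, a glucose transporter gene in the list of hypoxia genes, was at 5.34 and 5.29 CPM and then 11.9 and 13.6 CPM, a log2 fold change of 1.26 ± 0.21 (edgeR adjusted p = 0.00417). It was the only call among 37 hypoxia sensing and response genes, whose median was -0.06 and turned to 0.07 when libraries were scaled by their totals. In this list 3 members had an unadjusted p under 0.05 upward and 5 downward. Among the latter, *p4ha1b* and *ndrg1a* passed the adjusted threshold at less than 2-fold. Their log2 fold changes were -0.70 and -0.61 (edgeR adjusted p = 0.01265 and 0.0261). *ryr2b*, a cardiac calcium release channel, was the only call among 17 heart genes and rose by 1.03 ± 0.27 on the log2 scale (edgeR adjusted p = 0.0411). Of the 17 heart genes 15 lay above 0, 7 had an unadjusted p under 0.05 upward and none downward, and the median was 0.43. The other named genes among the largest rises were all low in level: *map7a*, a microtubule-associated protein gene, rose by 1.86 ± 0.40 on the log2 scale, the signalling ligand gene *wnt7ba* by 1.70 ± 0.47 on the log2 scale and the fibroblast growth factor receptor adaptor gene *frs3* by 1.68 ± 0.40 on the log2 scale. At 6 dpf *wnt7ba* had been at 1.93 and 1.94 CPM, beside 1.44 and 2.11 CPM at 9 dpf. *map7a* and *frs3* had been below both of their 9 dpf libraries there. For *znf541* and *lrit2*, with 1 and 3 counts at 8 dpf, the ratio of summed counts was 21.8 (95% exact counting interval 3.47 to 907) and 9.58 (2.92 to 49.6).

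Products of the exocrine pancreas fell. Of the 11 tested genes for lipases, amylase and other pancreatic products, 6 were called lower (54.5%) and none higher. All 11 had a log2 fold change below 0, and the median was -1.02. Their summed level was 1011 and 983.1 CPM at 8 dpf and 426.6 and 434.3 CPM at 9 dpf, after 1877 and 1896 CPM at 6 dpf. The stem rule of this list also took *rnasek* and *rnaseka*, which encode a ribonuclease of many tissues and were not called. Of the 7 tested digestive protease genes 2 were called lower, and the median was -0.76.

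*pdia2*, the pancreatic protein disulfide isomerase, was at 262 and 291 CPM in the 8 dpf libraries and at 100.1 and 113 CPM in the 9 dpf libraries. The later pair lay far below, with a log2 fold change of -1.38 ± 0.19 (2.59-fold lower, edgeR adjusted p = 0.000701). *erp27*, a further endoplasmic reticulum protein of the pancreas, was at 68.6 and 75.1 CPM and then 24.9 and 24.7 CPM, a log2 fold change of -1.54 ± 0.22 (edgeR adjusted p = 0.00132). *sycn*, the zymogen granule protein syncollin, which no list held, was at 324 and 366 CPM and then 107 and 105 CPM, a log2 fold change of -1.70 ± 0.18 (edgeR adjusted p = 0.000107). These 3 calls held with any 1 of the 4 libraries left out and with the 9 dpf pair summed.

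Several secreted digestive enzymes were among the calls. *cel*, bile salt-activated lipase, was at 246 and 205 CPM and then 92.9 and 89.6 CPM (-1.30 ± 0.20, edgeR adjusted p = 0.00218). Its cofactor colipase, *clps*, was at 126 and 114 CPM and then 50.2 and 51.0 CPM (-1.24 ± 0.19, edgeR adjusted p = 0.00213). For amylase, *amy2a*, the values were 229.6 and 214 CPM and then 106 and 107 CPM (-1.06 ± 0.19, edgeR adjusted p = 0.00678). All 3 enzymes had no overlap between the stages. Among the proteases, the trypsin gene *prss1* was at 77.2 and 68.7 CPM and then 35.6 and 28.2 CPM (-1.19 ± 0.15, edgeR adjusted p = 0.000436), and the elastase gene *ela3l* was at 572 and 526 CPM and then 237 and 237 CPM (-1.21 ± 0.17, edgeR adjusted p = 0.00112). The call of *prss1* held with any 1 of the 4 libraries left out. Carboxypeptidase *cpa4* passed the adjusted threshold at less than 2-fold (-0.76 ± 0.18, edgeR adjusted p = 0.0223), and *ela2l* did not pass it (-0.76 ± 0.44, edgeR adjusted p = 0.343). Trypsins and elastases come in families of similar genes, so that reads may be split among copies.

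At 10 dpf the protease genes were higher again: *prss1* was at 221 and 210.1 CPM and *ela3l* at 577 and 732 CPM, and at 11 dpf *prss1* reached 417 and 423 CPM. *amy2a* was at 224 and 186 CPM at 10 dpf and 404 and 411 CPM at 11 dpf, and *clps* at 85.9 and 57.8 CPM and 51.98 and 48.9 CPM. Of the 6 calls of the lipase and amylase list, 3 held with the 9 dpf pair summed, 4 without either 8 dpf library and 2 without either 9 dpf library, while 4 held with scaling by library totals.

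A single gut enterocyte gene was called. *fabp1*, a fatty acid-binding protein of enterocytes and liver, was at 799.7 and 875 CPM and then 413 and 401 CPM, with a log2 fold change of -1.04 ± 0.21 (edgeR adjusted p = 0.0115). Of the 29 genes of that list 24 lay below 0 and 5 above, where 44.6% of all genes lay above 0, and the median was -0.41. The call was lost when any 1 of the 4 libraries was left out. The olfactomedin genes *olfm4.1* and *olfm4.2*, which encode secreted glycoproteins, were among the 12 largest falls. *olfm4.1* was at 38.4 and 43.6 CPM and then 9.42 and 8.57 CPM (-2.19 ± 0.29, edgeR adjusted p = 0.00068), and *olfm4.2* was at 33.7 and 45.98 CPM and then 12.6 and 10.3 CPM (-1.81 ± 0.32, edgeR adjusted p = 0.006). At 6 dpf *olfm4.1* had been at 288 and 297 CPM and *olfm4.2* at 301 and 315 CPM, and the pair are related genes whose reads may be shared.

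**Figure D3:**
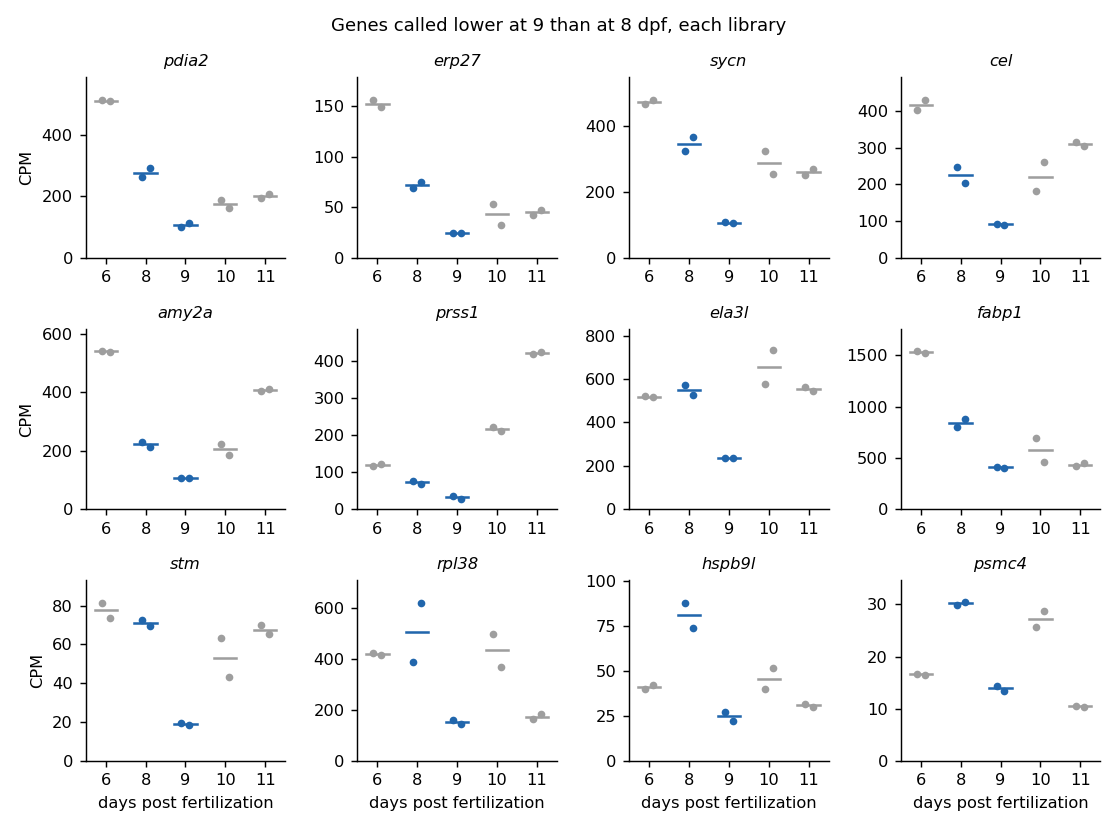
CPM (vertical axis, each panel with its own scale from 0) of 12 genes called lower at 9 dpf in each library of 6, 8, 9, 10 and 11 dpf (horizontal axis), with points for the 2 libraries of a stage, bars for their mean and 8 and 9 dpf in blue. Both 9 dpf points lie below both 8 dpf points in every panel; *prss1* then climbs to 417 and 423 CPM at 11 dpf, while *fabp1* does not return to its 8 dpf level by 11 dpf.

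Ribosomal protein genes gave the largest number of called falls of the 56 lists. Of 93 tested cytosolic ribosomal protein genes 14 (15.1%) were called lower and none higher. In this list 53 members had an unadjusted p under 0.05 downward and none upward, and the median was -0.54, or -0.42 with scaling by library totals. The 14 calls included *rpl38* at 389 and 621 CPM and then 159 and 145 CPM (-1.73 ± 0.32, edgeR adjusted p = 0.0069) and *rpl29* at 691 and 1030 CPM and then 306 and 302 CPM (-1.50 ± 0.22, edgeR adjusted p = 0.0016). The 2 libraries of 8 dpf stood apart here, since the summed level of the list was 77800 and 89170 CPM, whereas it was 57040 and 55750 CPM at 9 dpf. The fall did not last: the sum was 82170 and 73640 CPM at 10 dpf, and then 60940 and 59990 CPM at 11 dpf. At 6 dpf it had been 109800 and 108000 CPM. With libraries left out, 12 of the 14 calls held without the first 8 dpf library, 1 held without the second, and none held without either 9 dpf library or with the 9 dpf pair summed. Ribosomal protein genes can have similar copies, whose reads may be shared, and 2 of the called genes carry the same symbol, *rpl22*.

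Mitochondrial ribosomal proteins had 2 called falls among 72 tested genes (*mrpl41* and *mrpl53*) and a median of -0.34, and oxidative phosphorylation subunits had 2 among 57 (*atp5md* and *ndufa1*) with a median of -0.36. These were 2.78% and 3.51% of the members, beside 0.818% of all genes called lower, and rest on 2 genes each. *atp5md*, a small subunit of the ATP synthase, was at 214 and 231 CPM and then 92.2 and 101 CPM, and *ndufa1*, a subunit of complex I, at 56.3 and 79.4 CPM and then 29.4 and 34.3 CPM. None of these 4 calls held with the 9 dpf pair summed, and with scaling by library totals only 1, of an oxidative phosphorylation subunit, held. Of 43 proteasome subunits only *psmc4*, an ATPase of the regulatory particle, was called: it was at 29.9 and 30.5 CPM and then 14.4 and 13.3 CPM (-1.12 ± 0.14, edgeR adjusted p = 0.0005), and the call held with any 1 of the 4 libraries left out but was lost with scaling by library totals. Of the 43 proteasome subunits 41 lay below 0, and the median was -0.35, or -0.22 with scaling by library totals. In that list 20 had an unadjusted p under 0.05 downward and none upward. *psmc4* had been at 16.65 and 16.55 CPM at 6 dpf and was at 25.7 and 28.8 CPM at 10 dpf. *ost4*, a small subunit of the oligosaccharyltransferase that glycosylates new proteins, was at 55.95 and 61.5 CPM and then 19.8 and 14.3 CPM (-1.78 ± 0.19, edgeR adjusted p = 0.000165).

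Among 96 chaperones and heat shock genes 4 were called lower and none higher, with a median of -0.21. The 4 were 4.17% of the list, beside 0.818% of all genes called lower. The small heat shock genes had the largest changes. *hspb9* was at 26.2 and 12.7 CPM and then 3.93 and 5.06 CPM (-2.07 ± 0.32, edgeR adjusted p = 0.00213), with the first 8 dpf library well above the second. *hspb9l* was at 87.8 and 73.5 CPM and then 26.96 and 22.3 CPM (-1.70 ± 0.21, edgeR adjusted p = 0.000386), and its call held with any 1 of the 4 libraries left out. The cytosolic *hsp90aa1.1* was at 726 and 677 CPM and then 332 and 336 CPM (-1.07 ± 0.20, edgeR adjusted p = 0.00678). Its relative of the endoplasmic reticulum, *hsp90b1*, was at 838 and 771 CPM and then 401 and 403 CPM (2.001-fold lower, edgeR adjusted p = 0.00268). *hsc70*, a constitutive chaperone gene chosen after its values were seen, was at 79.6 and 85.9 CPM and then 31.7 and 31.6 CPM (-1.39 ± 0.19, edgeR adjusted p = 0.000748).

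**Figure D4:**
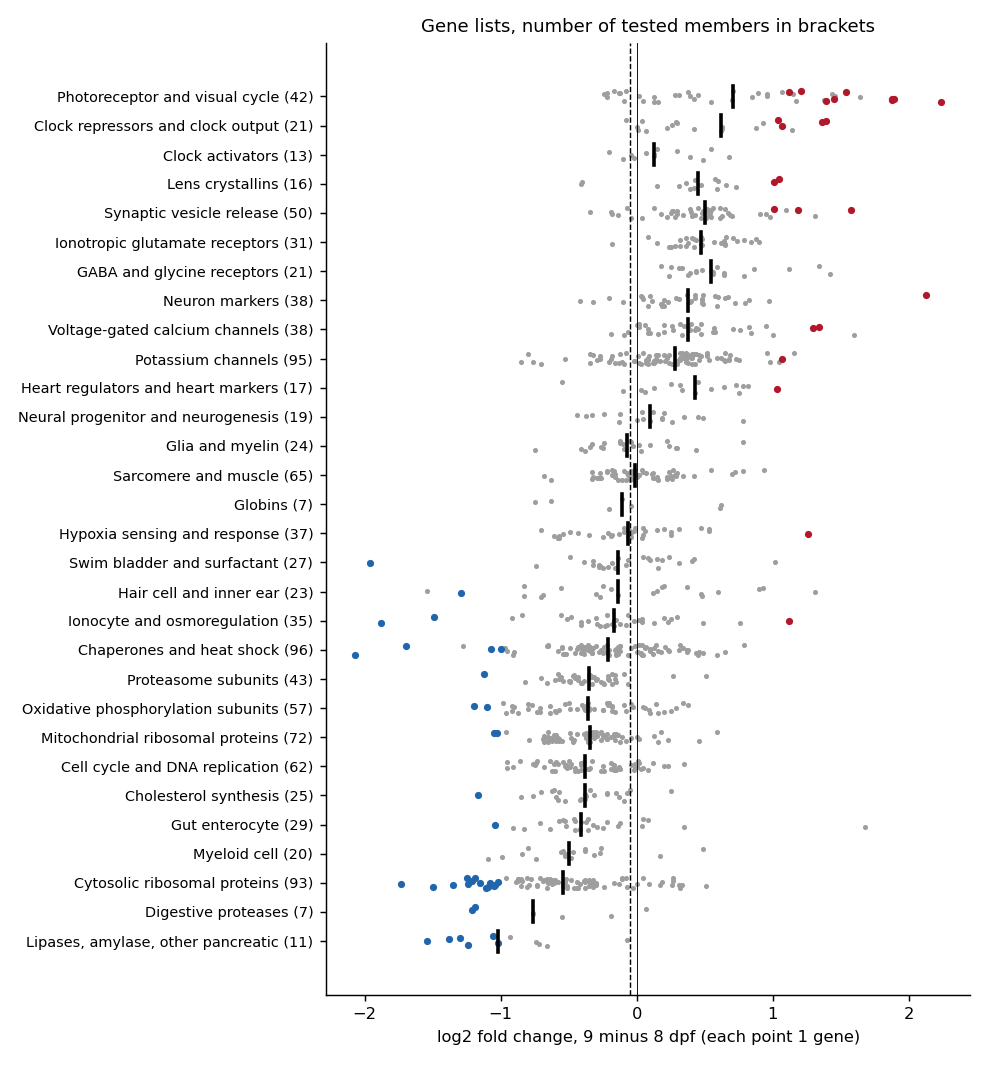
Log2 fold change of 9 against 8 dpf (horizontal axis) of every tested member of 30 gene lists (rows, number of members in brackets), with 1 point for each gene, called rises in red, called falls in blue, a black bar at each list's median and a dashed line at the median of all genes, -0.05. Photoreceptor and visual cycle genes, clock repressors and synapse genes lie to the right of the dashed line, and pancreatic genes and ribosomal proteins to the left.

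Genes known from the inner ear were called in both directions, and most of those named here belong to no list. *stm*, whose zebrafish counterpart starmaker shapes the otolith, had the smallest p of the named genes that fell. It was at 72.7 and 69.5 CPM in the 8 dpf libraries and at 19.2 and 18.7 CPM in the 9 dpf libraries, with a log2 fold change of -1.91 ± 0.18 (3.75-fold lower, edgeR adjusted p = 3.51e-05). At 10 dpf it was at 63.2 and 43.1 CPM and at 11 dpf at 70.0 and 65.4 CPM, so the 9 dpf pair was the lowest from 6 dpf on. *zpld1*, which encodes a zona pellucida domain protein found in the cupula of the inner ear, was at 4.57 and 5.39 CPM and then 1.44 and 1.69 CPM (-1.68 ± 0.31, edgeR adjusted p = 0.00737). 3 more were chosen after their values were seen: the otolith matrix protein gene *otomp* (-1.61 ± 0.39), the extracellular cochlin gene *coch* (-1.49 ± 0.31) and the proton channel gene *otop2* (-1.22 ± 0.20), all called. The fall of *coch*, from 14.6 and 15.6 CPM to 4.19 and 6.60 CPM, was followed by 63.2 and 72.4 CPM at 10 dpf and 115 and 111 CPM at 11 dpf. The place of *otop2* in this group rests on its gene family only, and its expression in the ear was not tested. Among the 23 tested hair cell and inner ear genes of the list only *otogl*, an otogelin-like gel protein, was called (-1.29 ± 0.31, edgeR adjusted p = 0.0271), and 11 members lay above 0 and 12 below. *loxhd1*, outside the list, encodes a protein of hair cell stereocilia in mammals and was called higher, at 2.59 and 2.89 CPM and then 6.67 and 6.18 CPM (1.21 on the log2 scale, edgeR adjusted p = 0.0115); it too was chosen after its values were seen. The median of the list was -0.14 and became 0.01 without the second 9 dpf library.

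Of 35 ionocyte and osmoregulation genes 2 were called lower and 1 higher. *slc12a3*, the sodium-chloride cotransporter, was at 16.5 and 30.2 CPM and then 7.98 and 8.99 CPM (-1.49 ± 0.30, edgeR adjusted p = 0.0109). The chloride channel gene *clcn2a* rose by 1.12 ± 0.30 on the log2 scale (edgeR adjusted p = 0.0454). The call of *slc12a3*, which was higher in the second 8 dpf library than in the first, held without the first 8 dpf library and was lost without any 1 of the other 3 and with the 9 dpf pair summed. The tendon transcription factor gene *scxb* had 10 and 14 counts at 8 dpf and 1 and 2 counts at 9 dpf, a ratio of 6.96 (95% exact counting interval 2.11 to 36.1), and its call was lost when any 1 of the 4 libraries was left out.

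The swim bladder is the air-breathing organ of this species. Among 27 tested swim bladder and surfactant genes only *tcf21*, a transcription factor gene of lung and heart mesenchyme in mammals, was called, at 1.68 and 2.501 CPM and then 0.654 and 0.421 CPM (-1.96 ± 0.50, edgeR adjusted p = 0.0344). The call was lost when any 1 of the 4 libraries was left out, and the list's median was -0.14. In this list 2 members had an unadjusted p under 0.05 upward and 3 downward. The upward ones were *fgf10* and *has2*, and neither was called. *fgf10* was at 1.525 and 2.212 CPM and then 3.795 and 4.075 CPM (1.02 ± 0.31, edgeR adjusted p = 0.07). *has2* had a log2 fold change of 0.41 ± 0.17 (edgeR adjusted p = 0.191). The 37 endothelial and vessel genes had no call, 1 unadjusted p under 0.05 upward and 7 downward. None of the 7 globin genes was called, and 1 had an unadjusted p under 0.05 in each direction. The upward one was cytoglobin, *cygb*, at 5.64 and 4.42 CPM and then 7.46 and 7.73 CPM (edgeR adjusted p = 0.183). The downward one was myoglobin, *mb*, at 72.4 and 84.1 CPM and then 52.1 and 49.5 CPM (edgeR adjusted p = 0.0753). The alpha globin gene *hbae5* was at 41.5 and 61.1 CPM and then 48.7 and 46.8 CPM, with overlap.

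Muscle and matrix genes were likewise without a call, and DESeq2 on all 14 libraries called no vessel, globin, sarcomere, collagen or cell cycle gene of these lists either. The 65 sarcomere genes had a median of -0.01, with 5 unadjusted p values under 0.05 upward and 3 downward, and the 53 collagens had a median of -0.12, with 1 upward and 7 downward. The 62 cell cycle and DNA replication genes had no call either, but 21 had an unadjusted p under 0.05 downward and none upward, and the median was -0.38. Cholesterol synthesis genes, with a median of -0.38 over 25 members, had *ebp*, a sterol isomerase gene, as the only call, at 39.03 and 32.03 CPM and then 16.4 and 15.03 CPM (-1.17 ± 0.18, edgeR adjusted p = 0.00218).

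Among the 76 genes that the study listed as present in tra catfish but lacking in channel catfish, 46 were tested and 2 were called. The 2 were 4.35% of those tested, beside 1.28% of all genes. *LOC113536891* was at 199 and 248 CPM and then 104 and 97.8 CPM, a log2 fold change of -1.15 ± 0.20 (edgeR adjusted p = 0.00464). The fall did not last, as this gene was at 217.8 and 180.4 CPM at 10 dpf and 107.2 and 108.2 CPM at 11 dpf. At 6 dpf it had been at 224.7 and 227.2 CPM. *LOC113524458* had 0 and 1 counts at 8 dpf and 19 and 17 counts at 9 dpf, a ratio of summed counts of 41.4 (95% exact counting interval 6.97 to 1679). In the 12 libraries of other stages it reached 0.517 CPM at most. The median over the 46 was -0.01, near that of all genes. The files give neither gene a symbol, and the study names the first of them *COX7C*, a subunit of cytochrome c oxidase in the respiratory chain.

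*LOC113524200* and *LOC113526630*, which have no symbol, were singled out after their values were seen, as were others not described here. *LOC113524200* had 887 and 1108 counts in the 8 dpf libraries (135 and 107 CPM) and 0 counts in both 9 dpf libraries, so it was at least 297-fold lower at 9 dpf, taking the mean of the floors of the 2 libraries. It had 731 and 1247 counts at 10 dpf and 2268 and 2173 counts at 11 dpf. No other gene was at 0 in both libraries of a stage while it was at 10 CPM or more in every library of the stages before and after it, for any stage from 4 to 10 dpf. *LOC113526630* was at 4.42 and 10.8 CPM at 8 dpf and 55.4 and 60.7 CPM at 9 dpf, a log2 fold change of 2.85 ± 0.34 (edgeR adjusted p = 0.000295). It was at 15.4 and 17.4 CPM at 10 dpf and 77.8 and 82.8 CPM at 11 dpf, so that it was low, high, low and high on 4 successive days.

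**Figure D5:**
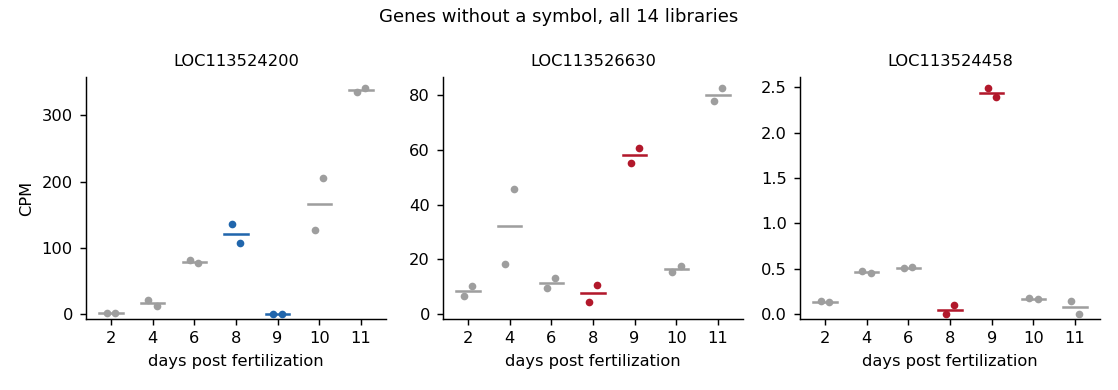
CPM (vertical axis, each panel with its own scale) of 3 genes without a symbol in all 14 libraries by stage (horizontal axis, days post fertilization), with points for the 2 libraries of a stage, bars for their mean and 8 and 9 dpf in colour. *LOC113524200* is at 0 in both 9 dpf libraries between 8 and 10 dpf levels above 100 CPM, *LOC113526630* is high at 9 and 11 dpf, and *LOC113524458* exceeds 2 CPM at 9 dpf only.

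To place the called genes in a longer interval, their values were read at stages other than 8 and 9 dpf. The fold change of 9 against 8 dpf rests on the libraries of those 2 stages, but all 14 libraries shared the estimate of each gene's spread. A gene with a small shared spread is more easily called in any contrast. The shares of calls below are therefore not independent of the first calls. Between 6 and 10 dpf, the stages on either side, 57 of the 158 genes that fell (36.1%) were also called lower at 10 than at 6 dpf, beside 5.46% of all genes, and 7 (4.43%) were called higher, beside 5.6%. Their median log2 fold change over that interval was -0.65, against -0.07 over all genes. Of the 89 genes that rose, 8 (8.99%) were called higher at 10 than at 6 dpf, beside 5.6% of all genes, and 13 (14.6%) were called lower, beside 5.46%, with a median of 0.21. The libraries of 10 and 11 dpf, a contrast added after the data were seen, gave a second view of a 1-day step. As with 8 and 9 dpf, the later pair was close to sampling (chi-square 1.28 per gene) and the earlier pair was not (3.7). Whether this likeness of the pairs bears on the shared calls was not tested. Between 10 and 11 dpf 6 of the 89 genes (6.74%) were called higher at 11 dpf and none lower, where 0.699% of all genes were called higher. Of the 158 genes 16 (10.1%) were called lower, where 0.445% of all genes were, and 3 (1.90%) were called higher, where 0.699% of all genes were, with a median of -0.29.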

How the data were processed

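Per the labels and the study's methods, the authors pooled whole larvae and depleted ribosomal RNA from the extracts. Trimming was by Trimmomatic 0.36 and alignment by STAR 2.7.0, against the genome build GENO_Phyp_1.0, and HTSeq gave the reads per gene. The deposited values are these counts, whole numbers without normalization, for 21656 genes in 14 libraries. Strand use in counting is not stated, so reads of overlapping or antisense genes may be mixed, and reads of near-identical copies cannot be placed.

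Here the counts of all 14 libraries were fitted together with stage as the factor in edgeR 4.0.16 (R 4.3.3: TMM scaling, filterByExpr, quasi-likelihood test, Benjamini-Hochberg adjustment over 19310 genes), and the contrast 9 minus 8 dpf was taken. CPM values use TMM-scaled library sizes. The ± values are approximate standard errors, obtained by dividing the absolute log2 fold change by the square root of the test's F statistic. The test was tried on simulated counts with known changes before use. Levels are not corrected for gene length and are not compared between genes. Folds against libraries at 0 use 3 counts as the floor, and ratios with 1 to 3 counts have exact 95% conditional binomial intervals. Tables and figures were made in Python 3.11.15.

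Gene lists were matched by symbol stem, a stem also taking a letter a to d. Of 11307 identifiers of the LOC type, 10538 were found in the RefSeq name table (assembly fPanHyp1.pri) and 6917 took a symbol from it; no coordinates were used because the builds differ. Named genes are, among called genes with a symbol, at least 1 CPM at 8 or 9 dpf and no overlap between the stages, the 12 largest rises, the 12 largest falls and the 10 smallest p values, then up to 5 called members of each list by p, up to 3 members where fewer than 2 were called, and every called gene of the study's species-specific list. Other genes given values are members of these lists, or are said to have been chosen after their values were seen. The comparison, the members and the lists were chosen with earlier results of these data known. Alternatives covered scaling, filters, the libraries in the fit, DESeq2 1.42.0, a block for the replicate number, summed pairs and leaving out each library. A search for promoter motifs was not run, as no promoter sequences were at hand. Of the genes that this rule names, 1 is not reported here.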

Additional observations from a re-analysis of the deposited data

How the results depend on the processing

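All 247 called genes kept their direction with summed pairs. With either other scaling, without a filter, with the replicate block and in DESeq2 on all 14 libraries, all 247 did so with an unadjusted p under 0.05. The number was 242 with only the 4 libraries, 246 with 6 to 11 dpf and 245 in DESeq2 on the 4 libraries. It was 186 with the filter of at least 10 counts, which tested fewer genes. The genes had been chosen for large changes in these same counts, so this outcome was largely given in advance. The number of calls moved more. The fit used in the report called 89 genes higher and 158 lower. Scaling by library totals gave 179 and 94, and a filter of at least 10 counts in every library gave 58 higher. Fits of the 4 libraries alone and of 6 to 11 dpf alone called 403 and 424 genes, 219 and 229 of them higher. DESeq2 called 37 genes higher on all 14 libraries, and 162 genes, 41 of them higher, on the 4 libraries. Summing the 9 dpf pair left 74 calls (23 higher, 51 lower), and summing the pairs of 6, 9 and 11 dpf left 11 (6 higher, 5 lower). An unadjusted p gave 527 calls (265 higher, 262 lower). With 1 of the 4 libraries left out the calls ranged from 48 to 149, those higher from 15 to 31 and those lower from 33 to 118; the lone library is then assumed to vary like the other stages. The cause of these differences was not tested beyond the smaller number of libraries. The comparison of 10 with 6 dpf, with 2136 calls, stayed within 1.5 times of that count in all alternatives run.

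The median of the hair cell and inner ear list was -0.14 and ranged from -0.29 to 0.01 with 1 of the 4 libraries left out, the last without the second 9 dpf library. That of the hypoxia list turned to 0.07 with library totals and that of the immediate early genes to -0.02 with the filter of 10 counts. The replicate numbers did not pair the libraries: the difference of replicate 1 and 2 correlated at 0.012 across genes between 8 and 9 dpf, and the replicate block called 222 genes, 221 of them among the 247. With 2 libraries for each stage, genes under 1 CPM rest on a few counts.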

Other observations

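Several gene groups outside the account above had no call and a median away from that of all genes (-0.05). Over all genes 44.6% lay above 0, and 12.6% had an unadjusted p under 0.05 downward and 8.44% upward. Myeloid cell genes lay below 0 in 18 of 20 members with a median of -0.50, and 9 had an unadjusted p under 0.05 downward. Among them, *mpx*, the neutrophil peroxidase gene, passed the adjusted threshold at just under 2-fold: it was at 18.9 and 19.6 CPM at 8 dpf and at 10.5 and 8.85 CPM at 9 dpf, a log2 fold change of -0.99 (edgeR adjusted p = 0.0476). Antioxidant and detoxification genes lay below 0 in 25 of 28 members with a median of -0.32, and 9 had an unadjusted p under 0.05 downward and 1 upward. Keratins and epidermis genes had a median of -0.24 (5 such p values downward and 2 upward), and pigment cell genes one of -0.20 (3 downward, none upward). Apolipoprotein and yolk lipid genes had a median of -0.31, with 7 of 21 at an unadjusted p under 0.05 downward and 1 upward. None of these lists had a call in either DESeq2 fit.

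Single calls appeared in lists of immune and activity-dependent genes. Among 18 complement genes *c1qb*, which encodes a chain of the first component, was called lower, at 2.74 and 3.94 CPM at 8 dpf and 1.31 and 1.12 CPM at 9 dpf. Among 34 immediate early genes the nuclear receptor gene *nr4a2* was called higher, at 2.14 and 2.12 CPM and then 4.06 and 4.78 CPM. Both rest on few reads, and the edgeR adjusted p was 0.047 and 0.0374.

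Lists of energy metabolism and hormones had no call by edgeR or in either DESeq2 fit. The median was 0.00 for 30 glycolysis genes (5 with an unadjusted p under 0.05 upward and 3 downward), -0.14 for 29 fatty acid oxidation genes (1 and 3) and -0.02 for 27 genes of gluconeogenesis and amino acid breakdown (2 and 3). It was -0.09 for 14 stress axis genes (2 and 1), 0.25 for 12 thyroid axis genes (2 and none) and 0.23 for 28 hormone genes (1 and none).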
